A study of Mus musculus with 12 samples.

Results

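The chemokine ligands described here are Ccl2, Ccl3, Ccl4, Ccl6, Ccl7, Ccl9, Ccl12, Cxcl2, Cxcl10 and Cxcl16, 10 of the 12960 genes in a count table of mouse bone marrow-derived macrophages (BMDMs). The genes were picked by symbol, after Ccl4 had been seen to rise with PF-06409577 (PF) in wild-type (WT) cells while other inflammatory genes fell. Values of the WT response to PF, and of the difference in response between genotypes, are therefore given as a description with no test. RNA was sequenced from 12 libraries in 4 groups of 3: WT cells with vehicle (0.1% DMSO), WT cells with 10 μM PF, AMPKβ1-/- cells with vehicle and AMPKβ1-/- cells with 10 μM PF, each for 6 h. PF is a small molecule that activates AMPK complexes containing the β1 subunit, which Prkab1 encodes, and the AMPKβ1-/- cells came from mice with a whole-body knockout. In every group the marrow had been differentiated for 7 days in medium conditioned by L929 cells, a source of M-CSF, so the cells were made in culture and had not been given an inflammatory stimulus that the labels name. The labels do not give the age or sex of the marrow donors, or whether libraries of a group came from separate animals, so a p-value may measure technical spread only.

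Chemokines are small secreted proteins that bind G protein-coupled receptors on leukocytes and guide their migration along gradients held on glycosaminoglycans. They are named CC or CXC after the spacing of their first cysteines. Macrophages secrete many of them, and in the artery wall CCL2 and its receptor CCR2 are known for drawing in monocytes. Many chemokine genes are transcribed at low levels in resting macrophages and are induced through NF-κB, AP-1 or interferon regulatory factors, whereas CCL6 and CCL9 are made constitutively by mouse myeloid cells.

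The genes lie in a few clusters of the GENCODE M21 annotation (GRCm38). On chromosome 11, Ccl2, Ccl7 and Ccl12 follow each other on the plus strand, with start sites 10.1 kb and 56.1 kb apart. Some 1477 kb further on, Ccl9, Ccl6 and Ccl3 stand on the minus strand, and Ccl4 starts on the plus strand 13.2 kb from the start of Ccl3. Cxcl16 lies elsewhere on chromosome 11, and Cxcl2 and Cxcl10 are on chromosome 5, 1445 kb apart. All 10 genes had a transcript GC content below the median of the tested genes, which was 50.1%, and all 10 were shorter than the median of 3123 bases. Cxcl2 shared 7.59% of its 31-base words with Cxcl3 and Ccl9 shared 3.75% with repeats in other genes, so their counts could include reads of other genes. Ccl2, Ccl6, Cxcl10 and Cxcl16 overlap a gene on the opposite strand. The library kit was directional, but the strand setting of the counting is not given in the sources used here, so reads of Ccl2 and Gm17268, Cxcl10 and Art3, or Cxcl16 and Zmynd15 may not be told apart.

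RefSeq promoter windows (GRCm38.p6) were at hand for 6 of the 10 genes: Ccl3, Ccl6, Ccl9, Ccl12, Cxcl2 and Cxcl10. The 250 bases before the start site are shown for 4 of them: Cxcl10 and Cxcl2, 2 CXC genes with κB-like motifs, and Ccl3 and Ccl9, 2 CC genes of the same cluster whose levels ran differently. They read 5′ to 3′ on the strand of the gene, and capitals mark matches to a motif on either strand.
Cxcl10 (chr5:92348890-92349139, minus strand): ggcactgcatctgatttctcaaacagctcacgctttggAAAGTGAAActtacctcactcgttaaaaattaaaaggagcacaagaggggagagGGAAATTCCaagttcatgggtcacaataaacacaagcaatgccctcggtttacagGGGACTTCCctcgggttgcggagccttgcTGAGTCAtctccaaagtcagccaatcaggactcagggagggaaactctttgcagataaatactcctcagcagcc
Cxcl2 (chr5:90903649-90903898, plus strand): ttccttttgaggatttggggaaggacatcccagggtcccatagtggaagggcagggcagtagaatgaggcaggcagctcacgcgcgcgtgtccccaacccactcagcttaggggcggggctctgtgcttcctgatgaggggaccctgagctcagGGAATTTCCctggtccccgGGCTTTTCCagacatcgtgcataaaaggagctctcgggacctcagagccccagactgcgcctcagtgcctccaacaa
Ccl3 (chr11:83649379-83649628, minus strand): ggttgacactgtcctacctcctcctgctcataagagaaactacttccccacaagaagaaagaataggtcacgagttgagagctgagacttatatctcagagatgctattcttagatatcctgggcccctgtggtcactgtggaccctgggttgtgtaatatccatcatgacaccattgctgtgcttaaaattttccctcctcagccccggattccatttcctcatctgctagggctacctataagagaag
Ccl9 (chr11:83578637-83578886, minus strand): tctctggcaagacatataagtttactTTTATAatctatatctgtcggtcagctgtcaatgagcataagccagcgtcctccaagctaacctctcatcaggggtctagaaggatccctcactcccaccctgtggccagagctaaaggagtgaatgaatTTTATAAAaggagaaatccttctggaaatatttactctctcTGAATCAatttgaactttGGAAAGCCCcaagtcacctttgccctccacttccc
The κB-like motif GGNNNTTCC, the binding pattern of NF-κB, had 2 matches in Cxcl10, 2 in Cxcl2 and 1 each in Ccl9 and Ccl12, against 15.7% of all 32851 windows. The interferon-stimulated response element AAANNGAAA was found in Cxcl10, 212 bases before its start, against 9.37% of all windows. The AP-1 motif TGANTCA was found in Cxcl10 and Ccl9, against 6.75%, and the TATA box TATAAA in Ccl9 and Ccl12, against 12.4%. The C/EBP motif TTGCNNAA and the MAF motif TGCTGAC were in none of the 6 windows, against 9.56% and 3.81% of all windows. No motif was matched in the windows of Ccl3 and Ccl6. In Ccl9, 2 matches to the TATA box overlap each other. A match describes these letters and does not show a bound site.

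Library totals ran from 8935609 to 14358180 counts. Levels are given as CPM, the counts of a gene in proportion to the total of its library after TMM scaling. Prkab1 checked the labels: it lay between 37.3 and 45.3 CPM in the 6 WT libraries and between 6.05 and 9.42 CPM in the 6 AMPKβ1-/- libraries. The cells carried all 9 macrophage markers, with Lyz2 at 11793 CPM or more and Csf1r at 4709 CPM or more in every library, and the markers summed to between 25377 and 29872 CPM. Granulocyte markers (6 of 9 in the counts) summed to 1.57 CPM at most, dendritic cell markers (4 of 6) to 1.37 CPM and lymphoid markers (2 of 7) to 0.314 CPM, and no mast cell or basophil marker was in the counts. Fibroblast markers (5 of 6) summed to 2.02 to 8.66 CPM in AMPKβ1-/- vehicle libraries and to 0.923 to 2.12 CPM in the other groups, and their part in the genotype differences was not tested. The tie between a gene's counts and its GC content differed between genotypes and between the WT groups: the slope on the log2 scale for each 10 points of GC ran from 0.36 to 0.72 in WT vehicle, from -0.05 to 0.37 in WT PF and from -0.51 to -0.10 in AMPKβ1-/- libraries. Values that move with this trend are therefore also given after its removal, together with the trend on length. In whole cultures, fewer cells that make a transcript and less of it per cell cannot be told apart.

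The genes spanned more than 3 orders of magnitude per transcript length. Ccl9, a CC ligand of CCR1, and Cxcl16, a transmembrane ligand of CXCR6 that also takes up oxidized lipoprotein, led with means of 261 and 225 CPM per kb over the 12 libraries. Their ranges overlapped, with Ccl9 the higher in 10 of 12 libraries. Together they held between 84.6% and 90.9% of the summed CPM of the 10 genes. Ccl3, Ccl6 and Ccl4 followed at 71.0, 48.9 and 30.4 CPM per kb. Each overlapped the next in range. Cxcl10 was at 11.7 CPM per kb and Cxcl2 at 3.78, also with overlapping ranges, and Cxcl2 was above Ccl2 in 12 of 12 libraries. Ccl2, Ccl7 and Ccl12 were the lowest, at 0.540, 0.272 and 0.179 CPM per kb, and the 3 overlapped each other.

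**Figure D1:**
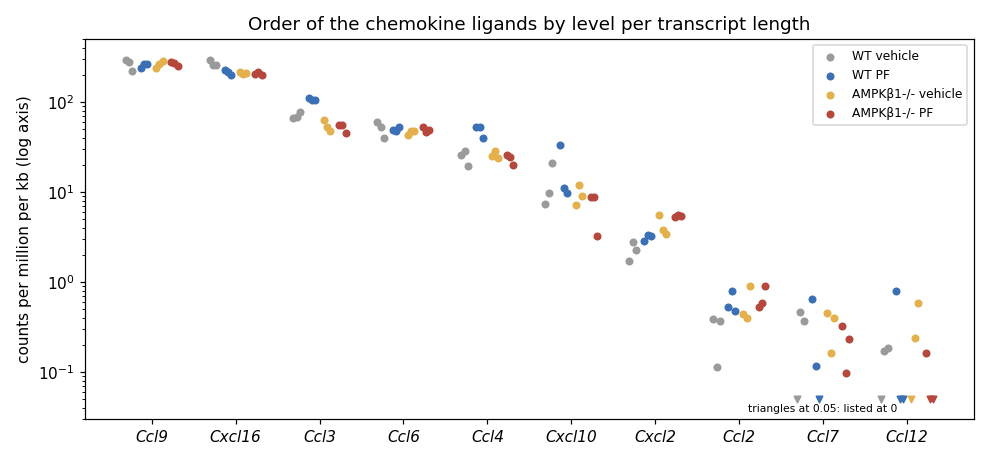
Level of each chemokine ligand in CPM per kb of transcript (log axis), genes ordered by their mean and points coloured by group, 3 libraries each. Ccl9 and Cxcl16 stand on top at 261 and 225, Ccl2, Ccl7 and Ccl12 stay below 1 in every library, and triangles mark libraries listed at 0.

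The trio Ccl2, Ccl7 and Ccl12, which encode ligands of CCR2, was barely sampled and did not pass the filter on low counts. Ccl2 had 3, 1 and 3 counts in WT vehicle, 5, 7 and 5 in WT PF, 4, 5 and 7 in AMPKβ1-/- vehicle and 5, 6 and 8 in AMPKβ1-/- PF libraries. Ccl7 had 0 to 6 counts and Ccl12 had 0 to 5 counts in a library, where a count of 0 allows up to 3. At these counts no difference could be resolved. With no filter, edgeR's quasi-likelihood test called none of the 3 in the response of AMPKβ1-/- cells to PF or in either genotype comparison, with adjusted p of 0.231 or more.

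Ccl3 and Ccl4 encode macrophage inflammatory proteins 1α and 1β, which attract monocytes and T cells. In WT cells Ccl3 was at 51.3, 51.9 and 59.2 CPM with vehicle and at 84.9, 79.7 and 79.8 CPM with PF. The WT PF libraries were all above the WT vehicle libraries, by 0.59 on the log2 scale (SE 0.11), or by 0.22 (SE 0.16) once the GC and length trend was removed. Ccl4 was at 16.8, 18.7 and 12.7 CPM with vehicle and at 34.9, 34.3 and 26.2 CPM with PF in WT cells. Here too the groups did not overlap, and the log2 fold change was 0.98 (SE 0.16), or 0.78 (SE 0.13) with the trend removed. The share of the 10 genes' summed CPM held by Ccl3 and Ccl4 was 4.21% ± 0.50 (SD, n = 3) in WT vehicle and 7.26% ± 0.36 (SD, n = 3) in WT PF libraries. In AMPKβ1-/- cells the share was 3.96% ± 0.56 (SD, n = 3) with vehicle and 3.68% ± 0.29 (SD, n = 3) with PF. Per transcript length, Ccl3 exceeded Ccl4 by a ratio of 1.86 to 4.01 in the 12 libraries, and the ranges of this ratio in WT vehicle (2.39 to 4.01) and WT PF libraries (2.62 at most) overlapped.

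In AMPKβ1-/- cells Ccl3 was at 48.3, 40.8 and 36.8 CPM with vehicle and at 42.3, 42.7 and 34.6 CPM with PF. Ccl4 was at 16.4, 18.9 and 15.6 CPM with vehicle and at 16.9, 16.3 and 13.02 CPM with PF. For both genes the treated and untreated libraries overlapped. The log2 fold change was -0.07 for Ccl3 (95% interval -0.33 to 0.18) and -0.15 for Ccl4 (-0.51 to 0.22), with an adjusted p of 0.982 for each by edgeR's quasi-likelihood test. The WT response exceeded the AMPKβ1-/- response by 1.13 on the log2 scale for Ccl4 (SE 0.22) and by 0.66 for Ccl3 (SE 0.15). The excess was 0.87 for Ccl4 (SE 0.19) and 0.30 for Ccl3 (SE 0.24) with the trend removed.

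**Figure D2:**
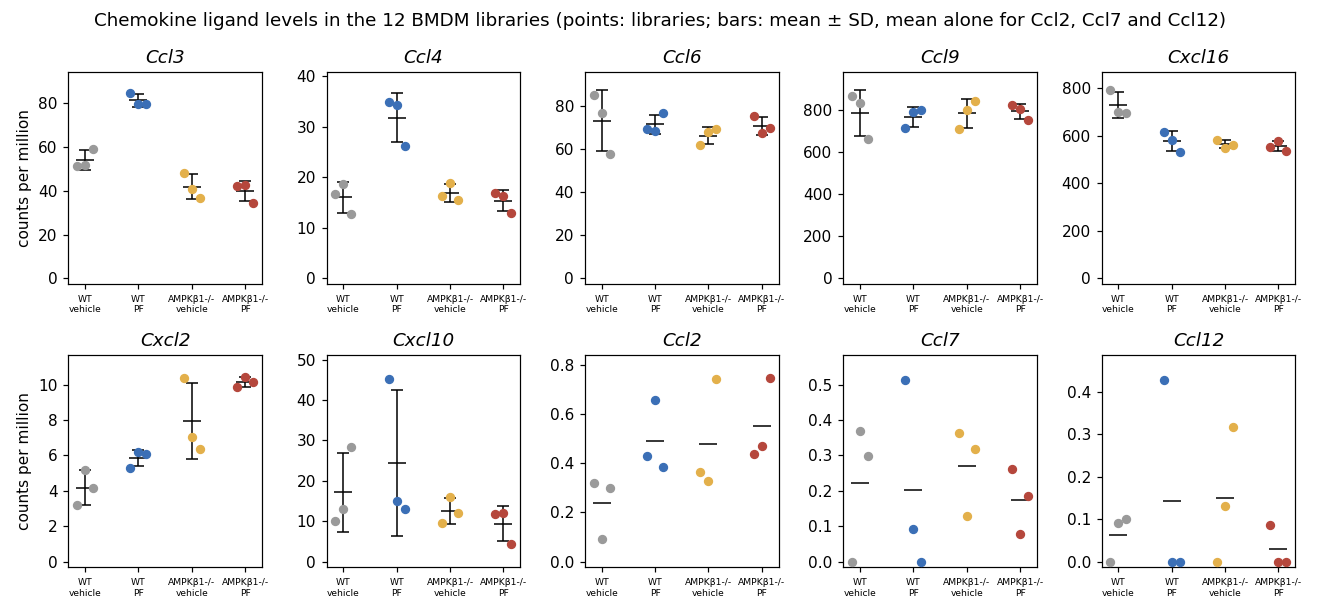
CPM of the 10 chemokine ligands in the 4 groups, 1 point a library, with the mean and SD of 3 libraries (the mean alone for Ccl2, Ccl7 and Ccl12). Ccl3 and Ccl4 are highest in the 3 WT PF libraries, Cxcl16 in the 3 WT vehicle libraries and Cxcl2 in the AMPKβ1-/- groups.

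Among the other genes, Cxcl16 was the one that fell past the threshold with PF in WT cells under TMM scaling. It was at 791, 699 and 695 CPM with vehicle and at 613, 584 and 531 CPM with PF, with no overlap and a log2 fold change of -0.34 (SE 0.08). It was past the threshold in 9 of the 12 fits without 1 library, and missed it when library 1 of WT vehicle (log2 -0.27) or either of libraries 2 and 3 of WT PF (-0.35 and -0.27) was left out. In AMPKβ1-/- cells it was at 582, 548 and 563 CPM with vehicle and at 553, 579 and 537 CPM with PF. These 6 libraries overlapped and were in the range of the WT PF libraries.

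Ccl6 and Ccl9, neighbouring genes for ligands of CCR1, stayed close to their WT vehicle level in each group with TMM scaling. Ccl9 was at 866, 835 and 661 CPM in WT vehicle, 715, 790 and 800 in WT PF, 708, 800 and 845 in AMPKβ1-/- vehicle and 825, 805 and 753 in AMPKβ1-/- PF libraries. Ccl6 was at 85.2, 76.7 and 57.8 CPM in WT vehicle, 69.4, 68.6 and 76.7 in WT PF, 61.8, 67.8 and 69.1 in AMPKβ1-/- vehicle and 75.4, 67.4 and 69.7 in AMPKβ1-/- PF libraries. All 4 groups overlapped for both genes. The log2 change with PF in WT cells was -0.04 for Ccl9 and -0.03 for Ccl6, but it was -0.46 and -0.38 once the GC and length trend was removed. Between genotypes with vehicle, Ccl9 was then lower by 0.80 and Ccl6 by 0.48 in AMPKβ1-/- cells.

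Cxcl2 encodes a ligand of CXCR2 that attracts neutrophils. Its CPM was 3.21, 5.17 and 4.18 in WT vehicle, 5.32, 6.18 and 6.08 in WT PF, 10.4, 7.04 and 6.36 in AMPKβ1-/- vehicle and 9.84, 10.4 and 10.1 in AMPKβ1-/- PF libraries. All 6 AMPKβ1-/- libraries lay above all 6 WT libraries. The WT PF libraries lay above the WT vehicle libraries, with a log2 fold change of 0.47 (SE 0.21), or 0.09 (SE 0.24) once the GC and length trend was removed.

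Cxcl10, an interferon-inducible ligand of CXCR3, had the widest spread of the 7 tested genes, with 1 high library in each WT group. It was at 10.0, 13.1 and 28.3 CPM in WT vehicle, 45.3, 15.1 and 13.1 in WT PF, 9.66, 16.0 and 12.1 in AMPKβ1-/- vehicle and 11.8, 12.01 and 4.37 in AMPKβ1-/- PF libraries. The log2 change with PF in WT cells was 0.51 (SE 0.56). It was -0.29 without WT PF library 1 and 1.07 without WT vehicle library 3, so these libraries set its direction and size.

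Across the contrasts, 7 of the 10 genes passed the filter and were tested among 10822 genes, with a gene called at an adjusted p below 0.05. For PF against vehicle in WT cells, 3 of the 7 were past that threshold (Ccl3 and Ccl4 higher, Cxcl16 lower), where 15.9% of all tested genes were. With the study's threshold for a differentially expressed gene, which adds a log2 fold change beyond 0.8, only Ccl4 was past it, against 1.52% of all genes. The libraries did not overlap for 4 of the 7, against 32.2% of all genes. With the GC and length trend removed 3 of the 7 were again past the adjusted p threshold, beside 811 of the 10822 genes. Ccl6, lower by 0.38 on the log2 scale, then stood in place of Ccl3 (log2 0.22). The rule used this contrast, and nothing is read from these counts. For the difference of the WT and AMPKβ1-/- responses, 1 of 7 (Ccl4) was past the threshold, against 0.416% of all genes, and it was also past the added fold threshold, against 0.157%.

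For PF against vehicle in AMPKβ1-/- cells, edgeR called 0 of the 7 genes, where 0.0554% of all tested genes were called and the same 0.0554% were past the added fold threshold. None of the 7 had an unadjusted p below 0.05, beside 539 of the 10822 genes. DESeq2 and limma-voom also called 0 of the 7, with 48 and 21 called over all genes. In no gene did the libraries of both groups stand apart, against 14.5% of all genes. The log2 fold changes ran from -0.42 (Cxcl10, 95% interval -1.82 to 0.97) to 0.36 (Cxcl2, -0.07 to 0.78), with adjusted p between 0.982 and 0.989. The median was -0.02, beside -0.0040 over all tested genes. With TMM scaling the interval of Cxcl16 was -0.20 to 0.16 and that of Ccl9 was -0.21 to 0.25, and larger changes lay outside it. For Ccl9 this depends on the scaling, as its change was -0.14 (SE 0.14) with the GC and length trend removed. The spread behind these intervals may be technical only.

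**Figure D3:**
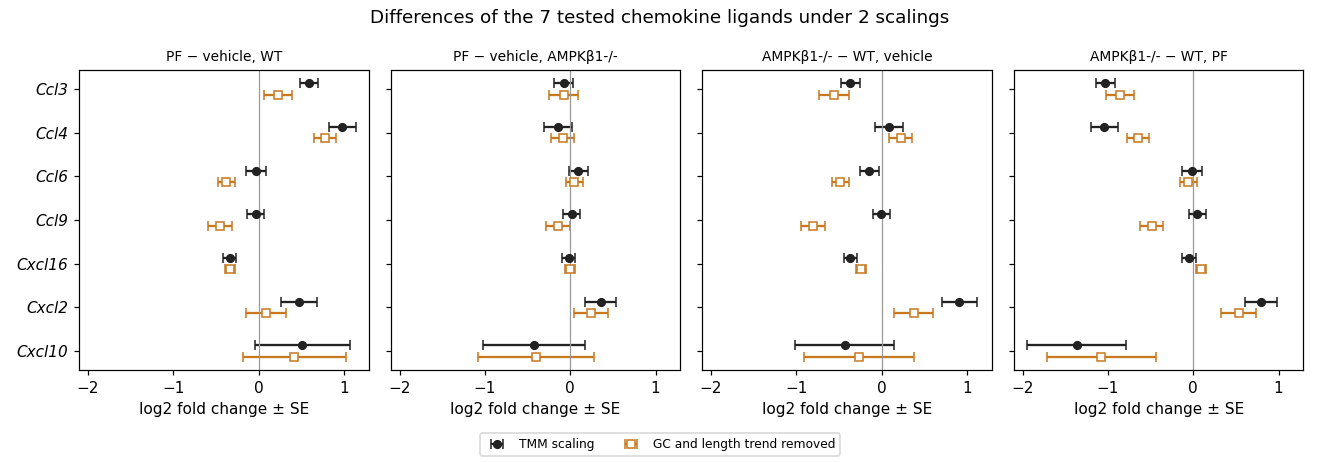
Log2 fold changes with SE of the 7 tested chemokine ligands in 4 comparisons, with TMM scaling (filled circles) and after removal of the GC and length trend of each library (open squares). Values with PF in AMPKβ1-/- cells run from -0.42 to 0.36 with TMM scaling, and Ccl9 moves from -0.01 to -0.80 between the scalings for AMPKβ1-/- against WT with vehicle.

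With vehicle, 3 of the 7 genes were called between AMPKβ1-/- and WT cells, beside 59.7% of all tested genes, and 3 of 7 had libraries that did not overlap, beside 62.9%. With TMM scaling these shares are below those of all genes and do not set the chemokines apart. The median log2 difference of the 7 was -0.14 beside -0.03 over all genes. With the GC and length trend removed, 4 of the 7 were called, beside 3685 of the 10822 tested genes. The median was then -0.26 beside 0.0171, so how the 7 stand beside all genes depends on the scaling, and nothing is read from it. Cxcl2 was higher in AMPKβ1-/- cells by 0.91 on the log2 scale (SE 0.21, adjusted p = 0.00168 by edgeR), a fold of 1.88. It was the 1 gene past the added fold threshold, against 17.8% of all genes. Ccl3 was lower by 0.37 on the log2 scale (adjusted p = 0.00997) and Cxcl16 was lower by 0.37 (adjusted p = 0.000969), both by edgeR. With the GC and length trend removed, Cxcl2 was no longer called (log2 0.38, adjusted p = 0.219), whereas Ccl9 was lower by 0.80 (adjusted p = 0.00178) and Ccl6 by 0.48 (adjusted p = 0.00210). The Ccl3 call was lost without AMPKβ1-/- vehicle library 3 (adjusted p = 0.0552). Ccl4 did not pass the test (log2 0.08, 95% interval -0.29 to 0.46, adjusted p = 0.677).

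With PF, 3 of the 7 genes were past the threshold between genotypes, beside 47.1% of all tested genes, and 4 of 7 had libraries that did not overlap, beside 59.9%. With TMM scaling these shares were again not above those of all genes, and the median log2 difference was -0.05 beside -0.0012. With the GC and length trend removed, 4 of the 7 were past the threshold, beside 4048 of the 10822 tested genes. The median was then -0.49 beside 0.0155. This comparison shares the WT PF libraries in which Ccl4 had been seen to rise, so nothing is read from its place in these counts and Ccl4 is given by its values alone: 15.4 ± 2.1 CPM (SD, n = 3) in AMPKβ1-/- and 31.8 ± 4.9 CPM (SD, n = 3) in WT cells. Ccl3 is also given by its values, as the difference holds its WT response to PF, which is described without a test. It was lower in AMPKβ1-/- cells by 1.03 on the log2 scale (SE 0.11), 2.04-fold, and by 0.37 with vehicle. Cxcl2 was higher in AMPKβ1-/- cells by 0.79 (SE 0.19, adjusted p = 0.00359 by edgeR). Among the 6 genes other than Ccl4, Ccl3 alone was past the added fold threshold, as were 14.3% of all genes. Nothing is read from that place of Ccl3. Cxcl10 was lower in each AMPKβ1-/- library than in each WT library, with a log2 difference of -1.37 (SE 0.58) that missed the threshold (adjusted p = 0.0781), and the difference was -0.57 without WT PF library 1. Cxcl16, which had differed between genotypes with vehicle, was at 556 ± 22 CPM (SD, n = 3) in AMPKβ1-/- and 576 ± 42 CPM (SD, n = 3) in WT cells (adjusted p = 0.617). With the trend removed, Ccl3 was lower by 0.86 (SE 0.17). Cxcl2 was then still called (adjusted p = 0.0478 by edgeR) and Ccl9 was lower by 0.49 (adjusted p = 0.0195).

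The genes whose levels ran closest to each chemokine ligand over the 12 libraries were found by the root mean square difference of log2 CPM, each gene centred on its own mean. For Ccl3 these included Tent5c (0.09) and Lss (0.15), against a spread of Ccl3 itself of 0.43. For Ccl4 they were Cd33 (0.17), Gng4 (0.19) and Cyp51 (0.21), against 0.46. For Cxcl10 they were Cmpk2 (0.25), Rsad2 (0.30) and Isg20 (0.31), against 0.78. Cxcl2 ran closest to Rnf6 (0.15), Crebzf (0.17) and Rbm48 (0.18), against 0.51, and Cxcl16 to Ppp1r18, Nmt1 and Rac2 (0.04 each), against 0.17. Ccl6 had its neighbour Ccl9 as the second closest of all tested genes (0.08), after Mcub (0.08) and before Cenpo (0.09), against a spread of 0.14. Ccl9, whose spread was 0.11, ran closest to Rad23b, Ash2l and Ccni (0.07 to 0.08). All genes were measured in the same libraries, which differ in genotype, treatment and depth, and these values describe likeness of level only.

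Of 28 other chemokine ligands, 14 were in the counts and 7 were tested. None was called with PF in AMPKβ1-/- cells by edgeR, with 1 of 7 at an unadjusted p below 0.05: Ccl5, which encodes a T cell attractant, was at 8.81 ± 0.18 CPM (SD, n = 3) with vehicle and 4.98 ± 0.73 CPM with PF, a log2 change of -0.82 (SE 0.16) with an adjusted p of 0.0778. DESeq2 called 1 of the 7 in this comparison and limma-voom 0. Against WT with vehicle, 2 were higher and 2 lower in AMPKβ1-/- cells, 4 of 7 beside the 59.7% of all genes, with a median log2 difference of -0.16 beside -0.03. Cxcl14, the most abundant of the list, was at 94.8 ± 4.2 CPM against 54.1 ± 2.3 CPM in WT cells (SD, n = 3, log2 0.81, adjusted p = 4.09e-05 by edgeR), and Pf4, platelet factor 4, at 16.9 against 11.5 CPM (adjusted p = 0.00241). Ccl5 was lower by 0.43 on the log2 scale (adjusted p = 0.0208) and Cx3cl1, the ligand of CX3CR1, by 0.73 (adjusted p = 0.0278), and neither was called with the trend removed. With PF, Cxcl14 (log2 1.32) and Pf4 (log2 0.70) were higher and Ccl5 (log2 -1.24) lower, all also called with the trend removed, 3 of 7 beside the 47.1% of all genes. With PF in WT cells, Cxcl14 was at 34.4 CPM against 54.1 CPM with vehicle.

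Of 22 chemokine receptors, 11 were in the counts and 7 were tested. With PF in AMPKβ1-/- cells edgeR called 0 of the 7, beside 0.0554% of all genes. None had an unadjusted p below 0.05, beside 539 of the 10822 genes. With vehicle, 3 of the 7 were called between genotypes, beside 59.7% of all genes, and the median log2 difference of the 7 was -0.10 beside -0.03 over all genes. The monocyte receptor Ccr2 was higher in AMPKβ1-/- cells (8.96 ± 1.78 against 2.61 ± 0.93 CPM, SD, n = 3, adjusted p = 0.000140 by edgeR). Ccr3, the eotaxin receptor, was higher too (4.48 ± 1.97 against 2.39 ± 0.69 CPM, SD, n = 3, adjusted p = 0.0428 by edgeR). Ccrl2, an atypical receptor that binds chemerin, was lower (8.03 against 13.9 CPM, adjusted p = 0.000908). With the trend removed, Ccr2 (log2 0.50) and Ccr3 (log2 -0.24) were not called, and the direction of Ccr3 depends on the scaling. With PF, 3 were higher (Ccr2, Ccr3 and Cx3cr1) and 2 lower (Ccrl2 and Cxcr4) in AMPKβ1-/- cells, 5 of 7 beside 47.1% of all genes, and these 5 were also called with the trend removed. The median log2 difference of the 7 receptors with PF was 0.0119 beside -0.0012 over all genes, and 0.0795 with the trend removed. Cx3cr1, the fractalkine receptor, was at 183 ± 3.0 CPM (SD, n = 3) in WT vehicle, 88.2 ± 3.1 in WT PF, 170 ± 5.4 in AMPKβ1-/- vehicle and 164 ± 4.6 in AMPKβ1-/- PF libraries. Cxcr4, the most abundant receptor, was at 232 CPM in WT vehicle and 290 CPM in WT PF libraries, a log2 change of 0.32 that was 0.06 with the trend removed.

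Of 12 proteases and glycan-binding genes that shed, trim or tether chemokines, 11 were in the counts and 10 were tested. With PF in AMPKβ1-/- cells edgeR called 0 of the 10, beside 0.0554% of all genes. The unadjusted p was below 0.05 for 2 of the 10, beside 539 of the 10822 genes. With vehicle, 4 of the 10 were called between genotypes, beside 59.7% of all genes, with a median log2 difference of 0.13 beside -0.03 over all genes. Adam10 and Adam17, the sheddases that release soluble CXCL16 from the membrane, were higher in AMPKβ1-/- cells. Adam10 was at 165 ± 33 against 63.4 ± 15 CPM (SD, n = 3, adjusted p = 0.000435 by edgeR), and Adam17, the most abundant of the list, at 301 ± 25 against 197 ± 31 CPM (adjusted p = 0.00140). Mmp12, the macrophage elastase, was higher (16.6 against 12.01 CPM, adjusted p = 0.0198) and Ndst1, which sulphates heparan sulphate, lower (76.5 against 113 CPM, adjusted p = 7.44e-05). With the trend removed, Adam10 and Ndst1 kept their direction and call, but Adam10 was higher by 0.48 on the log2 scale in place of 1.38. Adam17 was then not called, and Mmp12 turned to 0.56 lower on the log2 scale (adjusted p = 0.00128 by edgeR). With PF 5 of the 10 were called (median 0.11), beside 47.1% of all genes: Adam10, Adam17 and Sdc4 were higher and Ndst1 and Sdc1 lower in AMPKβ1-/- cells, where Sdc1 and Sdc4 encode heparan sulphate proteoglycans. After removal of the trend 8 of the 10 were called with PF, 4 higher and 4 lower, beside 4048 of the 10822 genes. Among them was Mmp12, lower by 1.03 on the log2 scale (adjusted p = 5.81e-07 by edgeR). With PF in WT cells, Mmp12 was at 24.8 ± 5.8 CPM against 12.01 ± 0.66 CPM (SD, n = 3) with vehicle. The log2 change was 1.05, or 0.59 with the trend removed. In AMPKβ1-/- cells Mmp12 was at 21.4 ± 0.92 CPM with PF against 16.6 ± 2.3 CPM (SD, n = 3) with vehicle, with no overlap. That log2 change was 0.36, not called (adjusted p = 0.907 by edgeR), or 0.12 with the trend removed.

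All 25 genes for transcription factors and mRNA decay factors known to act on chemokine genes were tested. With PF in AMPKβ1-/- cells edgeR called 0 of the 25, beside 0.0554% of all genes. The unadjusted p was below 0.05 for 1 of the 25, beside 539 of the 10822 genes. DESeq2 and limma-voom also called 0 of these 25 genes, of the receptors and of the proteases. With PF in WT cells 12 of 25 were past the threshold, all lower, beside 15.9% of all genes, with a median log2 change of -0.25 beside 0.0048 over all tested genes. With the trend removed 5 were past it, 4 lower and 1 (Jun, log2 0.44) higher, beside 811 of the 10822 genes, and the median was -0.13. Irf5, the most abundant of the list, was at 632 ± 41 CPM (SD, n = 3) in WT vehicle and 483 ± 51 CPM in WT PF libraries. Its log2 change was -0.39, or -0.19 with the trend removed. Fos, an AP-1 subunit, was at 106 ± 12 and 69.7 ± 3.3 CPM (SD, n = 3). In these libraries Ccl3 and Ccl4 were higher with PF under TMM scaling, as given above. With the trend removed the log2 change was 0.22 (SE 0.16) for Ccl3, no longer past the threshold, and 0.78 (SE 0.13) for Ccl4. Ccl4 was the gene seen to rise when the genes were picked. The list was chosen with earlier results of this contrast known, so its direction is a description.

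Between genotypes with vehicle, 18 of the 25 were called, 6 higher and 12 lower in AMPKβ1-/- cells, beside 59.7% of all genes. With the trend removed 12 were called, 8 higher and 4 lower, beside 3685 of the 10822 genes. The median log2 difference was -0.23, and 0.0826 with the trend removed. Fos was higher (178 ± 4.8 against 106 ± 12 CPM, SD, n = 3, adjusted p = 2.59e-05 by edgeR), as was Nfkbiz, which encodes an inducible nuclear IκB protein (73.9 ± 6.8 against 43.6 ± 6.8 CPM, adjusted p = 0.000138). Hif1a, the oxygen-regulated factor, was at 43.5 ± 8.7 against 15.8 ± 4.4 CPM (adjusted p = 0.000109). Its log2 difference was 1.46, and 0.46 with the trend removed (adjusted p = 0.00127 by edgeR). The interferon regulatory factors Irf7 (354 against 619 CPM, adjusted p = 0.00124) and Irf8 (331 against 497 CPM, adjusted p = 3.84e-05) were lower. Irf7 was not called with the trend removed (log2 -0.41, adjusted p = 0.0690 by edgeR), whereas Irf8 was then lower by 0.22 on the log2 scale (adjusted p = 0.00338). With PF, 15 were called, 8 higher and 7 lower, with a median of 0.085, beside 47.1% of all genes. After removal of the trend 21 of the 25 were called, 13 higher and 8 lower, with a median of 0.23, beside 4048 of the 10822 genes. Among the 15, Fos, Nfkbiz, Hif1a, Maf and Nfkb1 were higher and Irf7, Irf8 and Jun lower in AMPKβ1-/- cells. Maf, a macrophage differentiation factor, was at 292 ± 11 against 169 ± 24 CPM (SD, n = 3, adjusted p = 0.000111 by edgeR).

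**Figure D4:**
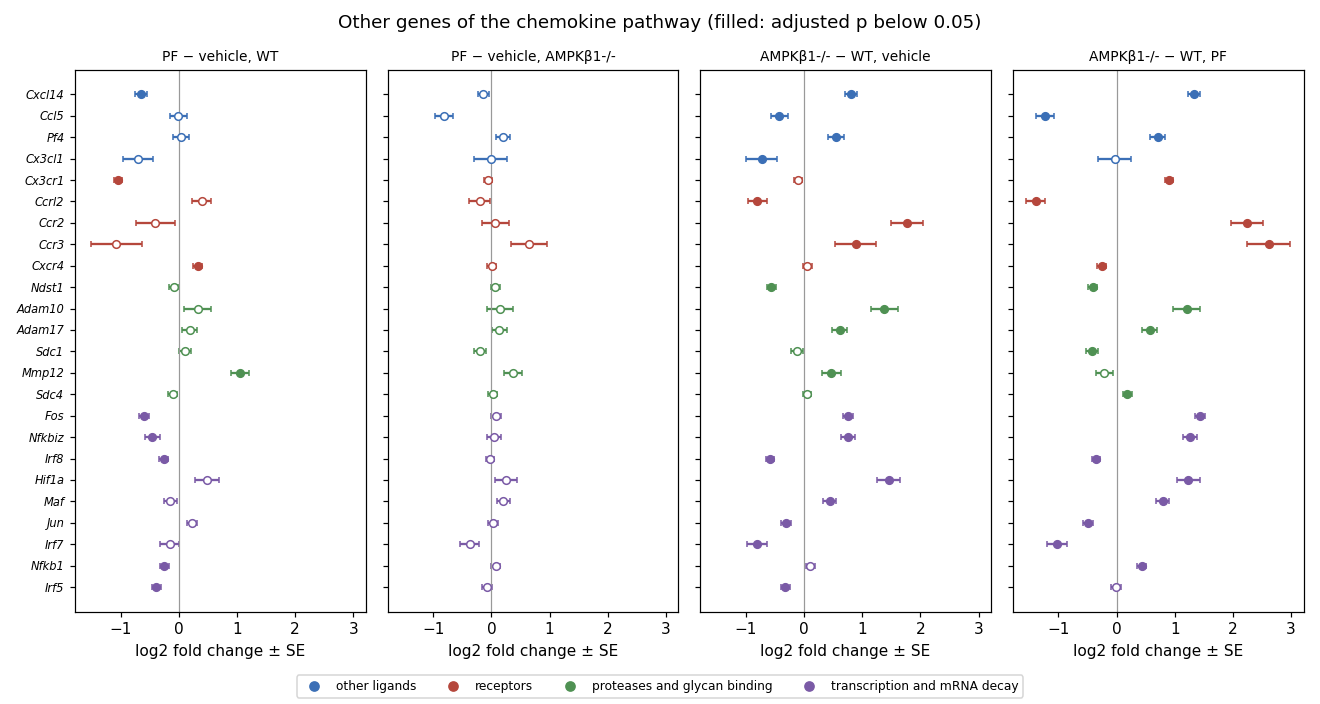
Log2 fold changes with SE of the named genes of 4 chemokine pathway lists in 4 comparisons, coloured by list and filled where the adjusted p was below 0.05. With PF in AMPKβ1-/- cells none is filled, while the genotype comparisons hold filled points on both sides of 0.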

How the data were processed

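RNA-seq libraries of BMDMs were prepared by the study with a directional kit. Per the labels and the study's methods, reads were trimmed with Trim Galore and quantified with Salmon; the genome build and versions are not given in the sources used here. The deposited values are estimated counts per gene as whole numbers, not normalized by the authors. Here 12 columns were assigned to groups by name, and replicate numbers are those of the columns. The 4 group means were fitted in 1 edgeR (4.0.16, R 4.3.3) quasi-likelihood model with TMM scaling after filterByExpr, and p-values were adjusted by Benjamini-Hochberg over 10822 genes. SEs are the log2 fold change over the root of F, and 95% intervals use 8 residual degrees of freedom. CPM values use TMM. DESeq2 (1.42.0) and limma (3.58.1) served as alternatives. Removing the GC and length trend used splines with 5 degrees of freedom per library, with lengths and GC from GENCODE M21 (12703 genes matched by symbol, 169 by older symbol, 88 not). The fits were tested on simulated data. Members and lists were chosen with earlier results of these data known. Genes of the lists were named if called between genotypes or with PF in AMPKβ1-/- cells (up to 8 a list, by p) or if most abundant, and some genes are not reported here.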

Additional observations from a re-analysis of the deposited data

Results flagged for a closer look

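Ccl4 was listed here for its log2 fold change with PF of 0.98 (SE 0.16) in WT cells and -0.15 (SE 0.16) in AMPKβ1-/- cells, a difference of 1.13 (SE 0.22). The gene was picked after its rise in WT cells had been seen, so the values are a description and not evidence that the responses differ. The difference was between 0.98 and 1.25 without any 1 library, and it was past the threshold of the fit of all genes in 4 of these 12 fits. With the GC and length trend removed it was 0.87.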

How the results depend on the processing

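The count of 0 chemokine ligands called with PF in AMPKβ1-/- cells was the same under all 22 alternatives run. Few genes of any kind were called in this contrast: 6 of 10822 by edgeR with TMM scaling. Over the alternatives the number ran from 0 (library size alone) to 62 of 10685 (libraries of the contrast alone). A set as small as the ligands would mostly give 0 at such shares, so no lack of response is read from the unchanged count. With the added fold threshold, 1 gene in place of 3 was past it for PF in WT cells and 1 in place of 3 between genotypes with vehicle. For the difference of the responses, 2 genes in place of 1 were past the threshold by DESeq2 or once the GC and length trend was removed, and 0 to 1 without 1 library. Fits of the libraries of 1 contrast alone give no such difference.

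Library size alone moved the median of all genes to 0.18 between genotypes with vehicle and 0.15 with PF, and relative to it Ccl9 with vehicle was at 0.0234, Ccl6 at -0.11 with vehicle and -0.0155 with PF, Cxcl16 with PF at -0.0465 and Ccl3 with vehicle at -0.34.

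Some values of the tested contrasts changed sign. Not all were near 0, as Cxcl10 between genotypes with vehicle was -0.43 with TMM scaling. Among the changed values, that of Ccl9 between genotypes with PF was called. Ccl9 between genotypes with vehicle was 0.0118 with DESeq2 size factors and by DESeq2, 0.0510 with upper quartile scaling, 0.21 with library size alone, 0.0197 with at least 10 counts in every library, 0.00059 by limma-voom and 0.0152 in the libraries of the contrast alone, and -0.12 to 0.0674 without 1 library. Ccl9 with the trend removed was -0.14 for PF in AMPKβ1-/- cells and, called, -0.49 between genotypes with PF. Ccl6 between genotypes was 0.0684 with vehicle and 0.13 with PF by library size alone, and with PF 0.0075 with upper quartile scaling and 0.0044 with at least 10 counts. Cxcl16 between genotypes with PF was 0.10 by library size alone and 0.0894 with the trend removed. Without 1 library, Ccl3 ran from -0.16 to 0.0377, Ccl9 from -0.0499 to 0.0749 and Cxcl16 from -0.0500 to 0.0053 for PF in AMPKβ1-/- cells, Ccl4 from -0.0618 to 0.21 and Cxcl10 from -0.70 to 0.13 between genotypes with vehicle, and Ccl6 from -0.0627 to 0.0403 and Ccl9 from -0.0016 to 0.0852 between genotypes with PF. The Ccl3 genotype difference with vehicle was not called with library size alone (log2 -0.16, adjusted p = 0.230). Cxcl10 between genotypes with PF was called with at least 10 counts in every library (adjusted p = 0.0403) and without WT vehicle library 3 (adjusted p = 0.0431). The causes were not tested.

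Deviations of libraries of the same number had correlations of -0.17 to 0.317 between groups. Pairs of different numbers were not computed beside them, so whether the numbers mark pairs was not tested, and they were not read as pairs. A replicate block left the called chemokine ligands at 3 with PF in WT cells and 0 with PF in AMPKβ1-/- cells. The counts were 3 between genotypes with vehicle, 3 with PF and 1 for the difference. With the block, 1983 of all genes were called with PF in WT cells. The number of all genes called with PF in WT cells ran from 346 (without WT PF library 3) to 3243 (without WT PF library 1), from 1725. Counts limit what can be said of Ccl2, Ccl7 and Ccl12.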
